A study of Mus musculus with 8 samples.

Results

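The taste transduction cascade of Tuft cells was followed through 4 subsets of medullary thymic epithelial cells (mTECs). Its 7 genes, the taste receptor subunit Tas1r3, the G protein subunits Gnat3, Gnb3 and Gng13, the phospholipase gene Plcb2, the calcium release channel gene Itpr3 and the cation channel gene Trpm5, were chosen by name from the 25466 genes of the count table. All 7 were listed and all 7 passed the filter on low counts, which left 17006 genes for testing. The mTECs came from the thymus of wild-type BL6N6 mice a few weeks of age and were sorted by FACS as CD45neg, EpCAMpos and CDR1neg cells. They were divided by the surface protein Tspan8, the product of a tissue-restricted antigen gene, and by MHC class II into Tspan8negMHCIIlo, Tspan8negMHCIIhi, Tspan8posMHCIIhi and Tspan8posMHCIIlo mTECs. Each subset had 2 biological replicates, and no group carried a mutation or received a treatment. Whether mice were pooled for a library is not given in the sources used here, so that p-values measure the spread between these 8 libraries.

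In taste cells of the tongue, a sweet, umami or bitter ligand acts on a receptor coupled to gustducin. The alpha subunit of gustducin is encoded by Gnat3, and its beta and gamma subunits, encoded by Gnb3 and Gng13, activate the phospholipase PLCβ2. The inositol trisphosphate made by this enzyme opens the type 3 receptor encoded by Itpr3 in the endoplasmic reticulum, and the released calcium opens TRPM5, which depolarises the cell. Tuft cells are chemosensory epithelial cells of gut, airways and thymus that use the same cascade, and thymic Tuft cells are counted among the mTECs that mimic peripheral cell types.

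The total count of a library lay between 1941518 and 7783841, and a floor of 3 counts corresponded to 0.385 to 1.55 CPM, the count scaled to a common library total. Replicates differed by more than counting noise in all 4 subsets, with a chi-square per gene between 3.47 and 10.6. The 7 mTEC markers on the list, Epcam, Krt5, Krt14, Aire, H2-Ab1, Cd80 and Fezf2, were detected in all 8 libraries. Transcripts of other cells were present too. The summed level of 6 thymocyte markers was 320 and 885 CPM in the 2 Tspan8negMHCIIlo libraries, 56.7 and 116 in Tspan8negMHCIIhi, 62.4 and 91.4 in Tspan8posMHCIIhi, and 111 and 183 in Tspan8posMHCIIlo, with no marker at 0 in any library. It was highest in replicate 2 of Tspan8negMHCIIlo, which is also the higher of its pair for each of the 7 cascade genes.

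The proximal promoters of 4 cascade genes are shown because these genes cover the range of expression patterns described here. Each window holds 250 bases before and 50 bases after an annotated start of transcription in RefSeq (GRCm38.p6), read 5′ to 3′ on the strand of the gene, with every CG dinucleotide in capitals.
Trpm5, chr7:143094593-143094892, minus strand: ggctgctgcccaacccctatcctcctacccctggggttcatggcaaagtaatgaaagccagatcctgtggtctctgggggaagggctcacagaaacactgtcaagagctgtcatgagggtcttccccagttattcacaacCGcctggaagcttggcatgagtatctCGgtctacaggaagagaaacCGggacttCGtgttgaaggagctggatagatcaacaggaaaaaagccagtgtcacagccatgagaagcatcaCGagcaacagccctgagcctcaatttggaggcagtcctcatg
Plcb2, chr2:118728389-118728688, minus strand: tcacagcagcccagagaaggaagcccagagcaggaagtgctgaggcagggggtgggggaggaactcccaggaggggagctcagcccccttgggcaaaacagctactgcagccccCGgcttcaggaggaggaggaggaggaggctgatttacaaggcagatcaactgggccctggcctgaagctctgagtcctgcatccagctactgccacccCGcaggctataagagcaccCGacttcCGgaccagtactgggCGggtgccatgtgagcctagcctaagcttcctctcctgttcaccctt
Gnat3, chr5:17962320-17962619, plus strand: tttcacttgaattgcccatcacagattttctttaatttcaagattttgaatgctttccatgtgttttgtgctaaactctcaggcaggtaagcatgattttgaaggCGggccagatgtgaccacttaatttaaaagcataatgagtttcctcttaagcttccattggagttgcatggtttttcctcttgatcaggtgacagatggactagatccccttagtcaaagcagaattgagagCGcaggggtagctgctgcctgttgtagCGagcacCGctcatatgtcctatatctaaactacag
Itpr3, chr17:27057054-27057353, plus strand: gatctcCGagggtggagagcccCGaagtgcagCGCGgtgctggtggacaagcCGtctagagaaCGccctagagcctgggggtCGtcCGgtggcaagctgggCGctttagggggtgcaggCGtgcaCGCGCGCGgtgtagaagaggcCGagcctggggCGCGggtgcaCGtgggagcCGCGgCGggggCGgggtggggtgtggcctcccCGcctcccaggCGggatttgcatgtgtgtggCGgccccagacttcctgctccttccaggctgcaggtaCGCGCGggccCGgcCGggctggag

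The Itpr3 window held 30 CG dinucleotides and was 72.3% G and C. By contrast, 5 CG dinucleotides were found in the windows of Trpm5, Plcb2 and Tas1r3 and 4 in that of Gnat3, below the median of 7 over the 32851 promoter windows of the RefSeq table. Gng13 has 2 annotated starts, with 6 CG dinucleotides around the upstream and 34 around the downstream start. The octamer ATGCAAAT, the sequence known to bind POU factors such as the Tuft cell regulator Pou2f3, was searched on both strands. It occurred once in the Itpr3 window and in no window of the other 5 genes with a promoter entry, against 1.74% of all windows. The Ets-type letters AGGAAG, contained in 35.4% of all windows, occurred 3 times in the Plcb2 window and once each in those of Itpr3 and Trpm5. These letter matches are descriptions and do not show that a factor binds.

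Most of the cascade followed the MHCII gate, and the calcium release channel gene did not. In Tspan8neg mTECs, 6 of the 7 genes were higher in MHCIIlo than in MHCIIhi cells, against 9.67% of all tested genes that were called higher. The increases ran from 2.81-fold for Tas1r3 to 15.3-fold for Gnat3. In Tspan8pos mTECs the same 6 genes were higher in MHCIIlo cells, against 2.62% of all tested genes, with increases between 4.01-fold for Tas1r3 and 6.87-fold for Trpm5. Itpr3 passed the threshold at neither Tspan8 level. The paper that reported these data had already named Trpm5 and Plcb2 as Tuft genes that stood out in its MHCIIlow subsets, in Tspan8neg and Tspan8pos cells alike. The share of cascade genes called is therefore not independent of these data. A gene was called at a Benjamini-Hochberg adjusted p under 0.01 over all 17006 genes and a log2 fold change of at least 1 in edgeR's quasi-likelihood test. The median log2 fold change of the 7 genes was 3.22 in Tspan8neg and 2.04 in Tspan8pos mTECs, beside medians of 0.04 and -0.01 over all tested genes.

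**Figure D1:**
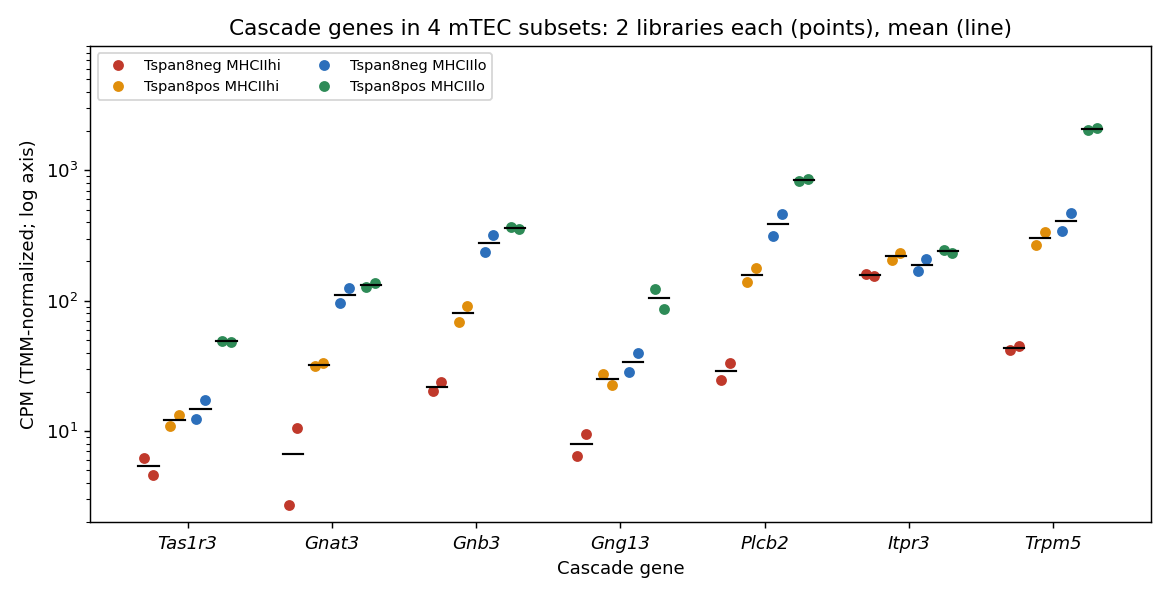
TMM-normalized CPM of the 7 cascade genes (log axis) in the 4 mTEC subsets, with a point for each of the 2 libraries and a line at their mean. Trpm5 spans 41.8 to 2102 CPM, while Itpr3 stays between 154 and 246 CPM.

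The receptor gene Tas1r3 encodes the subunit that sweet and umami receptors have in common and lies on chromosome 4 (155859268-155863362, minus strand, GRCm38). It was the least abundant gene of the cascade per kb of transcript in every subset. Its level was 12.3 and 17.4 CPM in the 2 replicates of Tspan8negMHCIIlo, 6.21 and 4.59 in Tspan8negMHCIIhi, 10.9 and 13.4 in Tspan8posMHCIIhi, and 49.4 and 48.3 in Tspan8posMHCIIlo. The Tspan8posMHCIIlo libraries stood above all others, and those of Tspan8negMHCIIlo and Tspan8posMHCIIhi overlapped. The log2 fold change of MHCIIlo over MHCIIhi was 1.49 ± 0.27 (SE, adjusted p = 0.00123) in Tspan8neg and 2.00 ± 0.24 (adjusted p = 0.000241) in Tspan8pos mTECs. These counts were low. With all libraries thinned to the smallest total, the values became 1.01 (adjusted p = 0.088) and 1.31 (adjusted p = 0.0467), which no longer pass. The Tspan8neg call was also lost without replicate 2 of Tspan8negMHCIIhi (1.17, adjusted p = 0.0331) and in a fit to the 4 Tspan8neg libraries (1.40, adjusted p = 0.0154).

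Gnat3, the alpha subunit gene of gustducin (chromosome 5, 17962549-18019834, plus strand), differed strongly across the MHCII gate in Tspan8neg mTECs. Its level was 96.1 and 124 CPM in Tspan8negMHCIIlo, against 2.69 and 10.6 in Tspan8negMHCIIhi. It reached 31.4 and 33.0 CPM in Tspan8posMHCIIhi and 128 and 136 in Tspan8posMHCIIlo. The MHCIIlo and MHCIIhi libraries were separated at each Tspan8 level, but the replicates of Tspan8negMHCIIhi lay far apart. The log2 fold change was 3.93 ± 0.36 (SE, adjusted p = 1.26e-05) in Tspan8neg and 2.04 ± 0.31 (adjusted p = 0.0012) in Tspan8pos mTECs. The size of the Tspan8neg difference rested on which Tspan8negMHCIIhi library was used. It was 3.29 without replicate 1, below the 3.46 of Gnb3 in the same fit, and 5.25 without replicate 2. The Tspan8pos call was lost when any of the 4 Tspan8pos libraries was left out, with values of 1.98 to 2.07 and adjusted p between 0.0103 and 0.0225, so that 5 of 7 genes were then called.

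Gnb3, the beta subunit gene (chromosome 6, 124834240-124840275, minus strand), had 237 and 319 CPM in Tspan8negMHCIIlo and 20.3 and 23.6 in Tspan8negMHCIIhi. It had 69.1 and 91.0 CPM in Tspan8posMHCIIhi and 365 and 355 in Tspan8posMHCIIlo. Every MHCIIlo library was higher than every MHCIIhi library, by log2 fold changes of 3.65 ± 0.20 (SE, adjusted p = 7.66e-07) in Tspan8neg and 2.17 ± 0.19 (adjusted p = 2.63e-05) in Tspan8pos mTECs. Gng13, the gamma subunit gene (chromosome 17, 25717171-25719406, plus strand), was much lower in count but is the shortest transcript of the 7. Its level was 28.3 and 40.0 CPM in Tspan8negMHCIIlo, 6.42 and 9.57 in Tspan8negMHCIIhi, 27.6 and 22.7 in Tspan8posMHCIIhi, and 123 and 85.7 in Tspan8posMHCIIlo. Unlike Gnb3, it rose by nearly equal amounts at both Tspan8 levels, with log2 fold changes of 2.06 ± 0.28 (SE, adjusted p = 0.000163) and 2.03 ± 0.24 (adjusted p = 0.000249).

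Plcb2, the phospholipase gene (chromosome 2, 118707517-118728438, minus strand), is known from blood cells as well as from taste and Tuft cells. It was measured at 313 and 463 CPM in Tspan8negMHCIIlo and at 24.6 and 33.0 CPM in Tspan8negMHCIIhi. In Tspan8posMHCIIhi it had 140 and 177 CPM, and in Tspan8posMHCIIlo 834 and 860. The 4 subsets did not overlap. MHCIIlo exceeded MHCIIhi by a log2 fold change of 3.73 ± 0.23 (SE, adjusted p = 1.25e-06) in Tspan8neg and 2.41 ± 0.21 (adjusted p = 2.72e-05) in Tspan8pos mTECs.

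Itpr3, the calcium release channel gene (chromosome 17, 27057304-27122223, plus strand), was expressed in every subset at similar levels. It had 168 and 210 CPM in Tspan8negMHCIIlo, 161 and 154 in Tspan8negMHCIIhi, 207 and 234 in Tspan8posMHCIIhi, and 246 and 234 in Tspan8posMHCIIlo. The difference between MHCIIlo and MHCIIhi on the log2 scale was 0.26 in Tspan8neg mTECs (95% interval -0.06 to 0.58, adjusted p = 0.171) and 0.12 in Tspan8pos mTECs (-0.19 to 0.44, adjusted p = 0.636). Both intervals lie under a 2-fold change in either direction. Ordered by level, the subsets ran from Tspan8negMHCIIhi through Tspan8negMHCIIlo and Tspan8posMHCIIhi to Tspan8posMHCIIlo, and no pair of neighbours differed at the threshold. Only the ends of this order differed at an adjusted p under 0.01, by 0.60 ± 0.14 (SE, adjusted p = 0.00508), which is inside the fold limit.

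Trpm5, the channel gene that closes the cascade (chromosome 7, 143069153-143094642, minus strand), had its highest level in Tspan8posMHCIIlo mTECs. Its level there was 2042 and 2102 CPM, against 268 and 334 CPM in Tspan8posMHCIIhi. In Tspan8neg mTECs it was 341 and 472 CPM in MHCIIlo and 41.8 and 45.2 CPM in MHCIIhi cells. No subset overlapped another. The log2 fold change of MHCIIlo over MHCIIhi was 3.22 ± 0.18 (SE, adjusted p = 9.52e-07) in Tspan8neg and 2.78 ± 0.18 (adjusted p = 7.17e-06) in Tspan8pos mTECs. Between the extremes of the design, Tspan8posMHCIIlo and Tspan8negMHCIIhi, Trpm5 differed 47.4-fold, Plcb2 29.0-fold and Tas1r3 9.15-fold. In that comparison 6 of the 7 genes were higher in Tspan8posMHCIIlo, against 14.7% of all tested genes.

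Trpm5, Tas1r3, Gng13 and Itpr3 are overlapped by other annotated genes, mostly on the opposite strand. Because the sources name a strand-specific kit in one place and tagmented cDNA in another, reads of overlapping genes may not have been told apart. Tssc4, opposite Trpm5, and Dvl1, opposite Tas1r3, were called in none of the 4 comparisons within a gate. Chtf18, opposite Gng13, was lower in Tspan8pos mTECs by a log2 fold change of -1.84 in MHCIIlo and -2.07 in MHCIIhi cells, the reverse of Gng13. Itpr3 overlaps Itpr3os and Mir7677, which were not listed in the count table.

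In bulk libraries, fewer cells of a type and less RNA per cell cannot be told apart, so that these levels are averages over the sorted cells. Markers of other cells moved with the MHCII gate. Of the 6 thymocyte markers, 4 were higher in Tspan8negMHCIIlo than in Tspan8negMHCIIhi, against 9.67% of all tested genes. None was called between the Tspan8pos subsets. Of 5 markers of endothelium and mesenchyme, 3 were higher and 1 lower in Tspan8negMHCIIlo, against 9.67% and 13.1% of all tested genes. In Tspan8posMHCIIlo 2 of them were higher, against 2.62%. Their summed level was 132 and 178 CPM in Tspan8negMHCIIlo, 119 and 128 in Tspan8negMHCIIhi, 38.5 and 33.6 in Tspan8posMHCIIhi, and 91.6 and 81.8 in Tspan8posMHCIIlo, with none at 0. None of 5 myeloid or 4 B cell markers was higher in MHCIIlo cells. Of the myeloid markers, 2 were lower in Tspan8negMHCIIlo and 1 in Tspan8posMHCIIlo, against 13.1% and 4.59% of all tested genes. The part of these cells in the levels of the cascade genes was not tested. Without the Tspan8negMHCIIlo library with the most thymocyte transcripts, the log2 fold changes over Tspan8negMHCIIhi were 1.23 for Tas1r3, 1.78 for Gng13 and 2.97 for Trpm5. They were 3.43 for Gnb3 and Plcb2 and 3.72 for Gnat3. The library that remained still had 320 CPM of thymocyte markers, above both Tspan8negMHCIIhi libraries. This fit therefore does not test the part of other cells.

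The Tspan8 gate divided the cascade differently. In MHCIIlo mTECs, 4 of the 7 genes were higher in Tspan8pos cells, against 12.1% of all tested genes. Trpm5 was 5.09-fold, Tas1r3 3.26-fold, Gng13 2.99-fold and Plcb2 2.18-fold higher. The alpha and beta subunit genes stayed close to each other in the 2 subsets, and their changes did not pass the threshold. In MHCIIhi mTECs, 6 of the 7 genes were higher in Tspan8pos cells, against 11% of all tested genes, and Itpr3 was the exception.

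Some markers of other cells were called across the Tspan8 gate as well, and those named here were picked after their values were seen. Of all tested genes, 12.1% were higher and 9.34% lower in Tspan8pos cells among MHCIIlo mTECs. Among MHCIIhi mTECs these shares were 11% and 7.45%. The marker lists are short, and their counts were not tested against these shares. Of the 5 myeloid markers, Itgam (14.0-fold) and Cd68 (3.26-fold) were higher and Itgax was lower in Tspan8posMHCIIlo than in Tspan8negMHCIIlo. Itgam, an integrin gene of myeloid cells, had 4.48 and 8.93 CPM in Tspan8negMHCIIlo, 13.7 and 22.4 in Tspan8negMHCIIhi, 144 and 164 in Tspan8posMHCIIhi, and 90.5 and 101 in Tspan8posMHCIIlo. All Tspan8pos libraries were above all Tspan8neg libraries. In the same MHCIIlo comparison the B cell marker Cd79b was higher (2.54-fold) and Cd79a lower, the thymocyte markers Cd3e and Lck were lower, and 1 of the 5 markers of endothelium and mesenchyme was lower. Among MHCIIhi mTECs, Itgam (8.31-fold) was the one marker of these 4 lists that was higher in Tspan8pos cells, and 1 marker of endothelium and mesenchyme was lower. The summed level of the myeloid markers was 56.0 and 121 CPM in Tspan8negMHCIIlo, 359 and 409 in Tspan8negMHCIIhi, 460 and 480 in Tspan8posMHCIIhi, and 216 and 214 in Tspan8posMHCIIlo, with Itgax at 0 in replicate 1 of the last. The sum of the 4 B cell markers lay between 19.3 and 51.0 CPM in the 8 libraries, with none at 0. The part of these transcripts in the differences of the cascade genes, Plcb2 among them, was not tested.

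**Figure D2:**
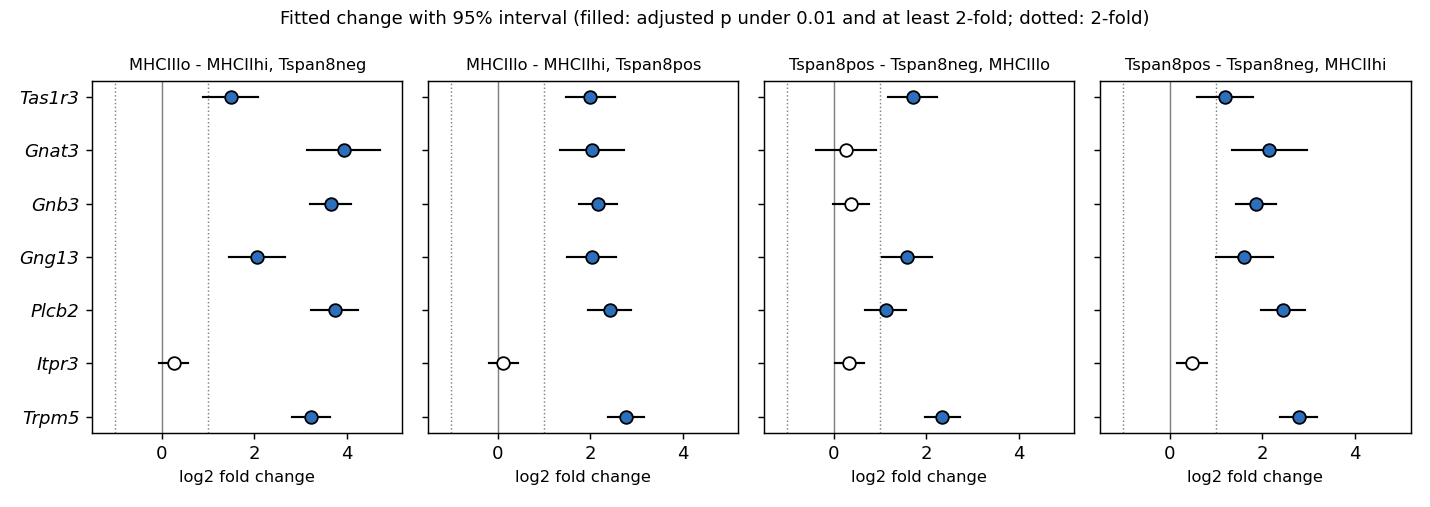
Fitted log2 fold changes of the 7 cascade genes with 95% intervals in the 4 comparisons within a gate, from edgeR's quasi-likelihood fit to 8 libraries. In MHCIIlo mTECs the Tspan8pos to Tspan8neg change of Trpm5 (2.35) lies far from those of Gnat3 (0.26) and Gnb3 (0.37). In MHCIIhi mTECs the 6 genes other than Itpr3 (0.48) lie between 1.19 and 2.79.

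For Trpm5 the log2 fold change of Tspan8pos over Tspan8neg was 2.35 ± 0.17 (SE, 95% interval 1.97 to 2.73, adjusted p = 1.92e-06) in MHCIIlo mTECs. For Gnb3 it was 0.37 ± 0.18 (-0.02 to 0.76, adjusted p = 0.115), and for Gnat3 0.26 ± 0.29 (-0.38 to 0.90, adjusted p = 0.511). The intervals of Gnb3 and Gnat3 exclude a 2-fold increase, and neither meets that of Trpm5. Gng13 had 1.58 ± 0.24 (SE, adjusted p = 0.000369), Tas1r3 1.70 ± 0.24 (adjusted p = 0.000208) and Plcb2 1.13 ± 0.20 (adjusted p = 0.00104). The Plcb2 value sits close to the fold limit and was not called without replicate 1 of Tspan8negMHCIIlo (0.86) or without replicate 2 of Tspan8posMHCIIlo (1.11, adjusted p = 0.0124), each of which left 3 genes called. After thinning, Tas1r3 was not called (1.18, adjusted p = 0.0278). Itpr3 had 0.34 ± 0.14 (SE, adjusted p = 0.0834).

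In MHCIIhi mTECs the log2 fold change of Tspan8pos over Tspan8neg was 2.79 ± 0.18 (SE, adjusted p = 9.46e-07) for Trpm5, 2.45 ± 0.22 (adjusted p = 8.83e-06) for Plcb2 and 2.15 ± 0.37 (adjusted p = 0.000879) for Gnat3. Gnb3 rose by 1.85 ± 0.20 (adjusted p = 3.05e-05), Gng13 by 1.61 ± 0.28 (adjusted p = 0.00093) and Tas1r3 by 1.19 ± 0.27 (adjusted p = 0.00536). Itpr3, at 0.48 ± 0.14 (adjusted p = 0.0222), was not called. Tas1r3 lost its call without any one of the 4 MHCIIhi or 2 Tspan8posMHCIIlo libraries (0.89 to 1.35), with DESeq2 (1.12) and after thinning (0.88), and Gng13 lost it without replicate 1 of Tspan8negMHCIIhi (1.31) or of Tspan8posMHCIIhi (1.49). The Gnat3 value was 1.52 without replicate 1 and 3.49 without replicate 2 of Tspan8negMHCIIhi, and after thinning it was not called (1.57, adjusted p = 0.0122).

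Whether the effect of one gate depended on the other was tested as an interaction, the MHCIIlo to MHCIIhi change in Tspan8pos minus that in Tspan8neg mTECs. Gnb3 was the single gene of the 7 that was called, at -1.48 ± 0.26 (SE, adjusted p = 0.00506), against 2.24% of all tested genes called lower. Gnat3 had a larger but less precise difference of -1.90 ± 0.47 (adjusted p = 0.0245), and Plcb2 had -1.32 ± 0.29 (adjusted p = 0.0146). For these 3 genes the MHCII difference was thus larger in Tspan8neg than in Tspan8pos mTECs, by the estimates. The values of Trpm5 (-0.44), Gng13 (-0.03), Itpr3 (-0.14) and Tas1r3 (0.51) had intervals that include 0. The Gnb3 call depended on single libraries. It was lost without either replicate of Tspan8negMHCIIhi, without replicate 2 of Tspan8posMHCIIhi or without either replicate of Tspan8posMHCIIlo, with values from -1.28 to -1.54. With DESeq2's Wald test and with no filter on low counts, Gnb3, Gnat3 and Plcb2 were all called. Without replicate 2 of Tspan8negMHCIIhi, Gnat3 was called instead, at -3.24.

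The 2 intermediate subsets also differed in a part of the cascade. Tspan8posMHCIIhi was lower than Tspan8negMHCIIlo for Gnat3 (-1.78 ± 0.31 on the log2 scale, SE, adjusted p = 0.000811), Gnb3 (-1.80 ± 0.18, adjusted p = 1.83e-05) and Plcb2 (-1.29 ± 0.20, adjusted p = 0.000391). This made 3 of 7 genes, against 10.3% of all tested genes that were called lower. The count fell to 2 when single libraries were left out. Gnat3 was not called without replicate 1 (-1.72, adjusted p = 0.0139) or replicate 2 (-1.81, adjusted p = 0.0109) of Tspan8posMHCIIhi, nor Plcb2 without replicate 2 of Tspan8negMHCIIlo (-0.98). Trpm5 (-0.43 ± 0.17, adjusted p = 0.0525), Gng13 (-0.45 ± 0.25, adjusted p = 0.168) and Tas1r3 (-0.30 ± 0.25, adjusted p = 0.357) did not pass. Ordered by mean level, the 6 genes other than Itpr3 ran from Tspan8negMHCIIhi through Tspan8posMHCIIhi and Tspan8negMHCIIlo to Tspan8posMHCIIlo. The middle neighbours in this order did not differ at the threshold for Trpm5, Gng13 and Tas1r3, and the upper neighbours did not for Gnat3 and Gnb3. For Trpm5 the libraries of the middle neighbours still did not overlap.

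The proportions within the cascade were examined by setting each gene against Trpm5 in the same library. For every 100 counts of Trpm5, Gnb3 had 69.4 and 67.6 in the Tspan8negMHCIIlo replicates, 48.5 and 52.3 in Tspan8negMHCIIhi, 25.7 and 27.2 in Tspan8posMHCIIhi, and 17.9 and 16.9 in Tspan8posMHCIIlo. All Tspan8neg libraries lay above all Tspan8pos libraries. Plcb2 showed the same order, with 91.8 and 98.0, 58.9 and 73.2, 52.3 and 53.0, and 40.9 and 40.9 counts in the same sequence of subsets. Gnat3 had 28.2 and 26.3 counts in Tspan8negMHCIIlo but 6.26 and 6.47 in Tspan8posMHCIIlo, and its Tspan8negMHCIIhi replicates were split at 6.44 and 23.4. Itpr3 ranged furthest, from 11.1 and 12.0 counts in Tspan8posMHCIIlo to 342 and 386 in Tspan8negMHCIIhi.

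**Figure D3:**
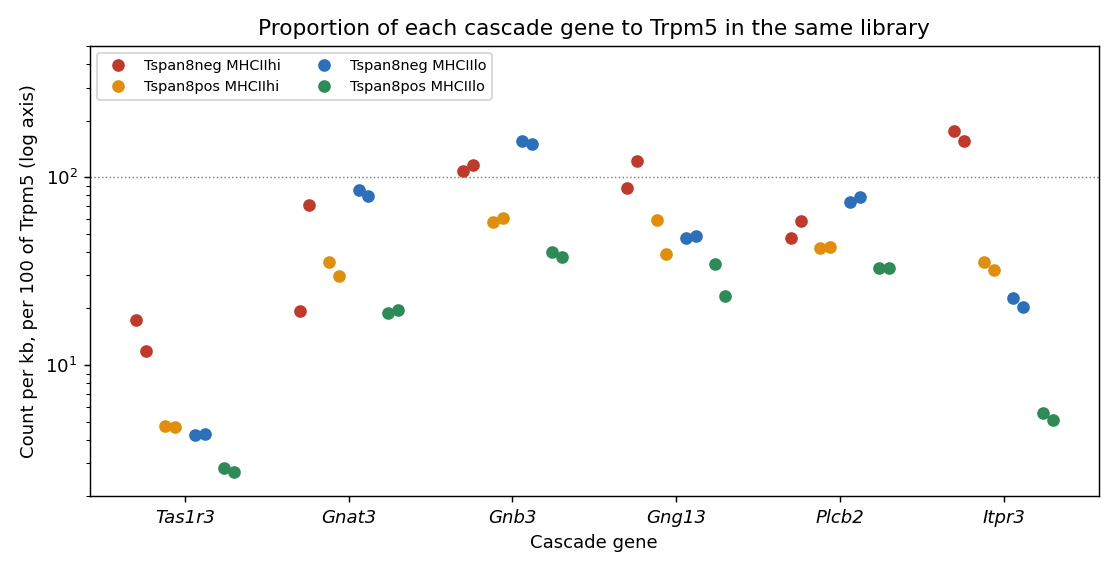
Count per kb of transcript of 6 cascade genes for every 100 of Trpm5 per kb, in each of the 2 libraries of each subset (log axis). Gnb3 lies at 151 and 155 in Tspan8negMHCIIlo and at 37.7 and 39.9 in Tspan8posMHCIIlo, and Itpr3 falls from 157 and 177 in Tspan8negMHCIIhi to 5.11 and 5.52 in Tspan8posMHCIIlo.

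The log2 ratio to Trpm5 was compared between the 4 Tspan8pos and the 4 Tspan8neg libraries, and between the 4 MHCIIlo and the 4 MHCIIhi libraries, with a two-sided exact permutation test. This made 12 comparisons of 6 genes. The libraries did not overlap for Gnb3 and Plcb2 by Tspan8 (differences of -1.46 and -0.77) and for Tas1r3 and Itpr3 by MHCII (-1.27 and -2.81). Each of these 4 comparisons gave an exact permutation p = 0.0286, the smallest this design allows. Adjusted over the 12 comparisons it was 0.0857, and none passed 0.05. The other comparisons had adjusted values between 0.171 and 0.857. With so few comparisons at the smallest p of the design, none could have passed 0.05 after adjustment. Trpm5 itself was higher in every MHCIIlo than in every MHCIIhi library. A gene of even level, such as Itpr3, therefore gets a lower ratio in MHCIIlo libraries. How many of all genes would separate in this way was not counted.

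Per kb of the longest coding transcript, the cascade was not led by the same gene everywhere. In Tspan8negMHCIIlo the highest mean level was that of Gnb3 (150 CPM per kb), followed by Trpm5 (98.6), Gnat3 (81.0) and Plcb2 (75.4). In Tspan8posMHCIIlo, Trpm5 (502 CPM per kb) was above Gnb3 (195), Plcb2 (165) and Gng13 (145), while Gnat3 had 96.9. In Tspan8negMHCIIhi, Itpr3 (17.6 CPM per kb) was the highest and Gnb3 (11.9), Gng13 (11.1) and Trpm5 (10.6) followed. Tas1r3 was lowest in each subset, with 1.53 to 13.9 CPM per kb. In each of these 3 subsets both replicates had the same leading gene. The order below it depended on the length used. Per kb of the union of all exons, the levels in Tspan8negMHCIIlo were 106 for Gnb3, 81.0 for Gnat3 and 63.6 for Trpm5, and that of Trpm5 in Tspan8posMHCIIlo was 324. In Tspan8negMHCIIhi, Gng13 (10.3 CPM per kb of exon union) then stood above Gnb3 (8.34).

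The genes around the cascade were read from a list of 36 receptors, regulators, enzymes, channels and transmitter genes of taste cells, of which 35 were in the table and 30 were tested. In Tspan8neg mTECs, 8 were higher and 5 lower in MHCIIlo cells, against 9.67% and 13.1% of all tested genes. In Tspan8pos mTECs, 6 were higher and 2 lower, against 2.62% and 4.59%. These counts depended on depth and single libraries. Only 8 were called in Tspan8neg mTECs without replicate 1 of Tspan8negMHCIIhi, and 1 to 3 in Tspan8pos mTECs without any one of the 4 Tspan8pos libraries. Their median log2 fold changes were 0.20 and 0.31, against 3.22 and 2.04 for the 7 cascade genes. Those that rose at both Tspan8 levels were Atp2a3, Rgs13, Rgs21, Calhm3 and Adcy4.

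Atp2a3 encodes the SERCA3 pump, which returns calcium to the endoplasmic reticulum, and was higher in MHCIIlo and in Tspan8pos cells alike. It had 615 and 841 CPM in Tspan8negMHCIIlo, 214 and 198 in Tspan8negMHCIIhi, 580 and 691 in Tspan8posMHCIIhi, and 2078 and 2004 in Tspan8posMHCIIlo. Its log2 fold changes between MHCII levels were 1.82 (adjusted p = 1.12e-05) in Tspan8neg and 1.68 (adjusted p = 5.17e-05) in Tspan8pos mTECs. Rgs21 and Rgs13 encode regulators that speed the turn-off of G alpha subunits. Rgs21, a regulator known from taste cells, had 15.1 and 21.4 CPM in Tspan8negMHCIIlo and 9.32 and 11.4 in Tspan8posMHCIIlo, with 0.41 to 2.98 CPM in the MHCIIhi libraries. Rgs13 had 11.2 and 7.28 CPM in Tspan8negMHCIIlo and 52.7 and 67.5 in Tspan8posMHCIIlo, a log2 fold change of 2.73 (adjusted p = 5.82e-05). That of Rgs21 was -0.79 (95% interval -1.51 to -0.06, adjusted p = 0.0788) and was not called. Calhm3, a subunit of the channel through which taste cells release ATP, rose by 1.18 (adjusted p = 0.00348) and 1.88 (adjusted p = 0.000428). Its Tspan8neg call was lost without replicate 2 of Tspan8negMHCIIlo (0.98, adjusted p = 0.0176), the library with the most thymocyte transcripts, without replicate 1 (0.87) or 2 (1.42) of Tspan8negMHCIIhi, and with DESeq2 (1.11). Its partner Calhm1 did not pass the filter on low counts. Adcy4, an adenylyl cyclase gene, rose by 2.69 and 3.08. Of these 5 genes, Atp2a3 kept its call at both Tspan8 levels in every fit with a library left out, and the other 4 lost a call in at least 1 of these fits.

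Tas1r1, which forms the umami receptor with Tas1r3, was higher in Tspan8negMHCIIlo, at 6.72 and 8.69 CPM, than in Tspan8negMHCIIhi, at 1.03 and 1.02 CPM (log2 fold change 2.88, adjusted p = 0.00269). That call was lost without replicate 1 (adjusted p = 0.0258) or replicate 2 (adjusted p = 0.0373) of Tspan8negMHCIIhi. Its Tspan8posMHCIIlo level of 6.58 and 6.81 CPM was not above that of Tspan8negMHCIIlo. Tas1r2, which forms the sweet receptor with Tas1r3, had between 0 and 4 counts in a library and was not tested. Scn2a and Pde1b, a sodium channel and a cyclic nucleotide phosphodiesterase gene, also rose in Tspan8neg mTECs, with no call in Tspan8pos mTECs. Their increases were 3.34 (adjusted p = 0.000279) and 1.14 (adjusted p = 0.000769). After thinning neither was called, at 2.49 (adjusted p = 0.033) for Scn2a and 1.13 (adjusted p = 0.0168) for Pde1b. The Pde1b value was 1.12 without replicate 1 and 0.98 without replicate 2 of Tspan8negMHCIIhi. Ric8b, a chaperone of G alpha subunits, was called in Tspan8pos but not in Tspan8neg mTECs, at 1.04 (adjusted p = 0.00863), and lost that call in 6 of the 8 fits with a library left out. None of the pathway genes was called in the interaction. By the Tspan8 gate, 8 pathway genes were higher and 3 lower in Tspan8pos cells among MHCIIlo mTECs, against 12.1% and 9.34% of all tested genes. Among MHCIIhi mTECs 6 were higher and 6 lower, against 11% and 7.45%. The 12 genes called in the latter fell to 4 after thinning and ranged from 6 to 15 with single libraries left out, and the 11 in MHCIIlo mTECs fell to 7 after thinning or without replicate 2 of Tspan8posMHCIIlo.

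Pathway genes fell in MHCIIlo cells at close to the background share. They made 16.7% of those tested in Tspan8neg and 6.67% in Tspan8pos mTECs, against 13.1% and 4.59% of all tested genes. The 5 genes that fell in Tspan8negMHCIIlo were Pkd2l1, Pkd1l3, P2rx3, Scn9a and Pde1c, and Pkd2l1 and Scn9a also fell in Tspan8posMHCIIlo. The latter calls were lost after thinning and without any one of the 4 Tspan8pos libraries. Pkd2l1, a marker of the sour-sensing cells of the tongue, had 23.4 and 20.02 CPM in Tspan8negMHCIIhi, 6.36 and 6.48 in Tspan8posMHCIIhi and at most 0.84 CPM in the 4 MHCIIlo libraries. Its partner Pkd1l3 had 11.4 and 12.2 CPM in Tspan8negMHCIIhi against 0.28 and 1.88 in Tspan8negMHCIIlo. P2rx3, the ATP receptor gene of sensory nerve endings, fell by 4.23 (adjusted p = 5.3e-05) on the log2 scale in Tspan8negMHCIIlo. Scn9a, a sodium channel gene, fell by 3.09 (adjusted p = 0.00012) and 3.16 (adjusted p = 0.00399), and Pde1c fell by 1.55 (adjusted p = 3.18e-05) in Tspan8neg mTECs.

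**Figure D4:**
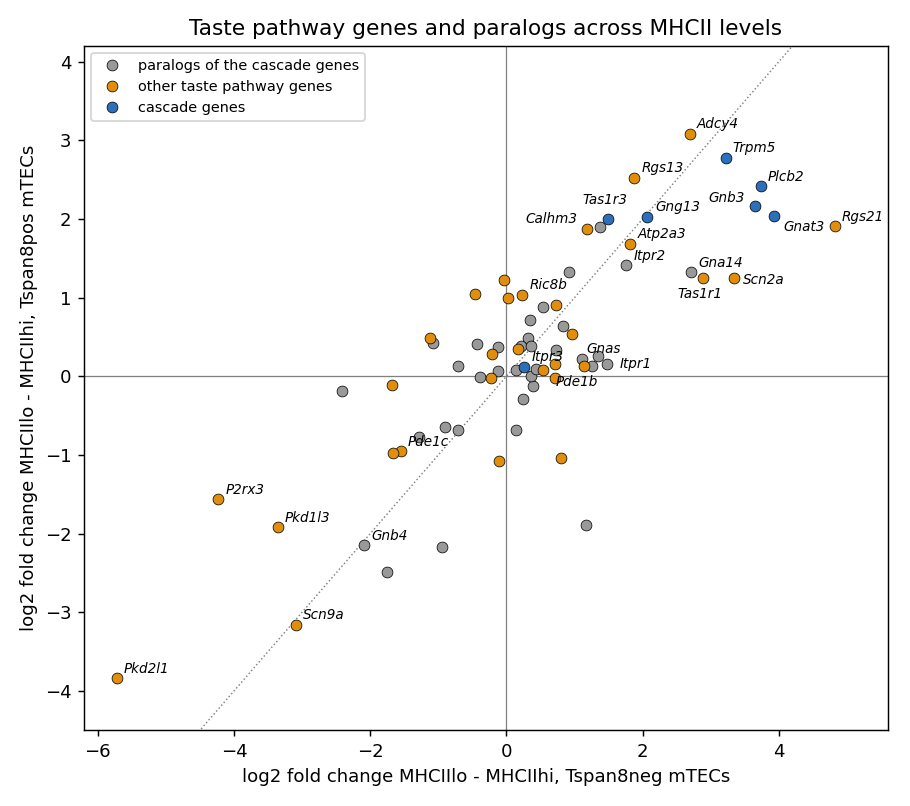
Log2 fold change of MHCIIlo over MHCIIhi in Tspan8neg (x axis) and Tspan8pos (y axis) mTECs for the 7 cascade genes, the other tested taste pathway genes and the tested paralogs, with names at the cascade genes and at genes called in either comparison. The dotted line marks equal change, and Trpm8, with no count in the 4 MHCIIlo libraries, is left out. All cascade genes except Itpr3 lie at 1.49 or more on both axes, while Itpr3 lies near the origin and Itpr2 at 1.76 and 1.41.

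Paralogs of the cascade genes were examined to see whether a whole gene family or single members moved. Of 42 paralogs, 36 were tested. In Tspan8neg mTECs, 4 were higher (11.1% of those tested) and 2 lower (5.56%) in MHCIIlo cells, against 9.67% and 13.1% of all tested genes. In Tspan8pos mTECs 2 were higher (5.56%) and 1 lower (2.78%), against 2.62% and 4.59%. These shares are near or below the background, apart from the 2 higher in Tspan8pos mTECs. The 2 that rose at both levels were Itpr2, with 1.76 (adjusted p = 6.1e-06) and 1.41 (adjusted p = 6.06e-05), and Gna14, with 2.72 (adjusted p = 0.000105) and 1.32 (adjusted p = 0.00915). The Tspan8pos call of Gna14 was lost with DESeq2 and in 6 of the 8 fits with a library left out. Itpr2 encodes the type 2 receptor for inositol trisphosphate. It had 157 and 192 CPM in Tspan8negMHCIIlo, 50.1 and 52.5 in Tspan8negMHCIIhi, 151 and 146 in Tspan8posMHCIIhi, and 386 and 403 in Tspan8posMHCIIlo. Per kb of transcript its mean level in Tspan8posMHCIIlo, 33.8 CPM, stood beside 26.7 CPM for Itpr3, but per kb of exon union the 2 genes were equal there (26.6 CPM each). In Tspan8negMHCIIhi the level was 4.39 CPM per kb of transcript for Itpr2 against 17.6 for Itpr3. Gna14 encodes a Gq-type alpha subunit known from taste cells and was low, with 23.2 and 15.3 CPM in Tspan8negMHCIIlo and 39.5 and 28.1 in Tspan8posMHCIIlo.

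Itpr1, the third gene of the receptor family, had yet another distribution. Its level was 64.1 and 75.9 CPM in Tspan8negMHCIIlo and between 19.1 and 26.5 CPM in the other 6 libraries. Gnas, the gene of the stimulatory alpha subunit, was likewise at 664 and 638 CPM in Tspan8negMHCIIlo and between 202 and 277 CPM elsewhere. Among the beta subunit genes, Gnb4 ran against Gnb3, with 229 and 226 CPM in Tspan8negMHCIIhi and 12.6 and 15.7 in Tspan8posMHCIIlo, a fall of 2.09 (adjusted p = 2.83e-06) in Tspan8neg and of 2.15 (adjusted p = 1.91e-05) in Tspan8pos mTECs on the log2 scale. Gnb1 and Gnb2, the widely expressed beta subunit genes, were not called in any of the 4 comparisons within a gate. Trpm8, the cold-sensing relative of Trpm5, had no count in the 4 MHCIIlo libraries, against 12 and 47 counts in Tspan8negMHCIIhi.

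By the Tspan8 gate another group of paralogs was higher at both MHCII levels, and its members are named here after their values were seen. In MHCIIlo mTECs 7 paralogs were higher and 5 lower in Tspan8pos cells, against 12.1% and 9.34% of all tested genes. In MHCIIhi mTECs 8 were higher and 2 lower, against 11% and 7.45%. Trpm4, the closest relative of Trpm5, had between 65.3 and 78.2 CPM in the 4 Tspan8pos and between 19.1 and 31.7 CPM in the 4 Tspan8neg libraries, with log2 fold changes of 1.26 (adjusted p = 0.000258) in MHCIIlo and 1.60 (adjusted p = 4.63e-05) in MHCIIhi mTECs. Plcb3 rose by 1.17 and 1.23, Gna15 by 2.96 and 2.12, Gng12 by 1.27 and 1.25, Gng4 by 2.20 and 1.37, and Trpm6 by 2.05 and 2.95. With single libraries left out, Gng4 lost its call in 1 of 8 fits in MHCIIlo and 4 of 8 in MHCIIhi mTECs, and Trpm6 in 2 of 8 in MHCIIlo mTECs. None of these 6 was called across the MHCII gate at either Tspan8 level. Itpr2 was the seventh of the higher paralogs in MHCIIlo mTECs.

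Tuft cell markers gave a frame for these changes. Of 19 markers, all of them tested, 16 were higher in MHCIIlo than in MHCIIhi cells in Tspan8neg and 18 in Tspan8pos mTECs, against 9.67% and 2.62% of all tested genes. Higher in Tspan8pos than in Tspan8neg cells were 19 among MHCIIlo and 18 among MHCIIhi mTECs, against 12.1% and 11%. Their summed level was 8288 and 8063 CPM in Tspan8posMHCIIlo, 1059 and 1420 in Tspan8negMHCIIlo, 1387 and 1547 in Tspan8posMHCIIhi, and 222 and 258 in Tspan8negMHCIIhi. The median log2 fold change of Tspan8pos over Tspan8neg in MHCIIlo mTECs was 2.68 for these markers and 1.13 for the 7 cascade genes. Trpm5, at 2.35, lay closer to the marker median than Gnat3 (0.26) and Gnb3 (0.37). Rgs13 is on both the marker and the pathway list. The paper that reported these data had already named Dclk1, Avil and Alox5 as Tuft genes that stood out in its MHCIIlow subsets. It stated this for Tspan8neg and Tspan8pos cells alike. The shares of markers called across the MHCII gate are therefore not independent of these data.

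The genes with the most similar course over the 8 libraries were sought for each cascade gene in the 13056 genes that averaged 5 CPM or more. Likeness was the root mean square difference of centred log2 CPM, so that a value of 0 is an identical course. Trpm5 was closest to Avil (0.07), which encodes the actin-binding protein advillin, then to Alox5 (0.13), the leukotriene synthesis enzyme, and to Vav1 (0.18), a guanine nucleotide exchange factor. Avil had 339 and 444 CPM in Tspan8negMHCIIlo and 1869 and 1948 in Tspan8posMHCIIlo, where Trpm5 had 341 and 472, and 2042 and 2102. The neighbours of Plcb2 were Gm30694 (0.28), Lrmp (0.28) and Ackr4 (0.31). Lrmp, which encodes a partner of inositol trisphosphate receptors, had 296 and 381 CPM in Tspan8negMHCIIlo and 1082 and 1063 in Tspan8posMHCIIlo.

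Gnat3 and Gnb3 had other neighbours. Nearest to Gnat3 were B4galt4 (0.39), Nod1 (0.42), a sensor of bacterial peptidoglycan, and the bitter receptor gene Tas2r108 (0.47). In replicate 1 of Tspan8negMHCIIhi these genes had 0.21, 0.41 and 0.21 CPM, under the floor of 0.659 CPM in that library. Tas2r108 had 10.4 and 12.2 CPM in Tspan8negMHCIIlo and 14.3 and 16.1 in Tspan8posMHCIIlo, against 0.21 to 2.84 CPM in the MHCIIhi libraries. As with Gnat3, its 2 MHCIIlo subsets were close together, which follows from its choice as a near gene. Closest to Gnb3 were the interferon-induced gene Oas2 (0.18), Ankrd63 (0.31) and Slit2 (0.34). Oas2 had 98.6 and 91.2 CPM in Tspan8negMHCIIlo, 7.04 and 7.14 in Tspan8negMHCIIhi, 26.8 and 35.5 in Tspan8posMHCIIhi, and 119 and 138 in Tspan8posMHCIIlo. Gng13 was nearest to Tubg2 (0.19), Car7 (0.21) and A630073D07Rik (0.22), and Tas1r3 to Ccdc28b (0.13), Espn (0.16) and Ptpn6 (0.19). Itpr3 lay nearest to Stxbp2 (0.08), Stat6 (0.08) and Clcn7 (0.09). That these varied little, like Itpr3, follows from the measure, which is not scaled by spread. No cascade gene was among the 3 nearest genes of another. The closest pair within the cascade was Gnb3 and Plcb2, at 0.36, where Plcb2 ranked 6th among the neighbours of Gnb3.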

How the data were processed

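RNA-seq of sorted mTECs, 2 libraries for each of 4 subsets, was analysed from 1 table of estimated counts per gene, deposited by the authors as whole numbers without normalization. The authors quantified reads with Salmon 1.8.0 on a Gencode mouse transcriptome (mm10), after FastQC, and tested with DESeq2 1.30.0, whose values were not used here. How the estimates were rounded is not given in the sources used here. Gene symbols and coordinates were taken from GENCODE on GRCm38, a later release than that of the authors, and 25336 of 25466 identifiers matched. Libraries were grouped by subset and replicate as their titles give them. The counts were fitted in R 4.3.3 with edgeR 4.0.16 (quasi-likelihood, TMM, filterByExpr, 1 mean per subset, 8 libraries, two-sided). Standard errors are the log2 fold change divided by the root of the F statistic. Floors cover counting error only, as reads were amplified by PCR and carry no molecular identifiers. Ratios to Trpm5 used log2 values after adding 0.5 counts. Levels per kb used the longest coding transcript or, where stated, the union of all exons. Promoter sequences come from RefSeq, with 6 of the 7 genes matched and Gnb3 not. The cascade genes and all gene lists were chosen with earlier results of these data known. Named genes are the 7 cascade genes, pathway genes and paralogs called between MHCII levels and the 3 nearest genes of each, with partners of these genes added after their values were seen. Alternatives were DESeq2 1.42.0, its size factors, other count filters, a replicate block, thinning to 1941518 counts, other thresholds, fits to 4 libraries, another prior and leaving out each library. Scripts were tested on simulated data.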

Additional observations from a re-analysis of the deposited data

Results flagged for a closer look

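Gnb3 was the one cascade gene called in the main fit when the MHCIIlo to MHCIIhi change was compared between Tspan8pos and Tspan8neg mTECs. Its interaction was -1.48 on the log2 scale (edgeR, adjusted p = 0.00506). Only the threshold sets it apart from Gnat3, with -1.90 (edgeR, adjusted p = 0.0245), and Plcb2, with -1.32 (edgeR, adjusted p = 0.0146). Among the paralogs of the cascade genes, Gnas, with -1.12 (edgeR, adjusted p = 0.00389), and Itpr1, with -1.32 (edgeR, adjusted p = 0.00768), were called too. These were 2 of 36 tested paralogs (5.56%), against 2.24% of all tested genes called lower. None of the 30 tested taste pathway genes was called. With single libraries left out, the values ranged from -1.71 to -1.26 for Gnb3, from -1.29 to -0.99 for Gnas and from -1.48 to -1.18 for Itpr1. Each of these genes lost its call in most of these fits. The thymocyte markers were also highest in the Tspan8negMHCIIlo libraries, and their part in these differences was not tested.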

How the results depend on the processing

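The number of cascade genes called in each comparison of 2 subsets stayed within 1.5 times the reported one under all alternatives run, and no called cascade gene changed direction. The interaction count rose from 1 gene to 3 with DESeq2's Wald test, with no filter on low counts and at an adjusted p of 0.05, and ranged from 0 to 3 with single libraries left out. With the replicate number as a block it was also 3, at -1.47 for Gnb3, -1.95 for Gnat3 and -1.31 for Plcb2, and 1236 instead of 783 genes were called overall. The block changed no other call of a cascade gene. Same-numbered libraries deviated together only weakly over all tested genes (correlations between -0.01 and 0.09). Because many of these genes have low counts, the correlations do not exclude that equal numbers pair the samples. The main fit did not use such a pairing. The small interaction of Gng13 changed sign, to 0.0368 with DESeq2, 0.0384 with its size factors, 0.0381 with no filter, 0.00899 with at least 10 counts in 4 libraries, and 0.354 after thinning, and between -0.33 and 0.26 with single libraries left out. That of Itpr3 lay between -0.32 and 0.0198 in the latter fits. The cause was not tested. Another prior changed no ratio test, and with a library left out these tests cannot reach an adjusted p of 0.05, so only their values were compared. Taste pathway calls in Tspan8pos mTECs fell from 8 to 2 after thinning and to between 1 and 3 without any one of the 4 Tspan8pos libraries. Tas1r3 and Tas1r1 had low counts and lost calls after thinning and with single libraries left out. Receptors under the filter were not tested.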
